A study of Marchantia polymorpha and Arabidopsis thaliana with 40 samples.

Results

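A group of 587 accessible regions of the Marchantia polymorpha genome had fewer ATAC-seq counts in both lines that lack HSFB1. They were 1.10% of the 53390 regions counted in the ABA set, the libraries made for a treatment with abscisic acid (ABA). The members were chosen by measured values in that set. For each mutant, D was the log2 ratio of its mean level to that of the wild type Tak-1, with a pseudocount of 0.5 CPM (counts scaled to a library total of 1e6), minus the median over all regions. A member had D of at most -0.4 in the hsfb1 knockout and in the hsfa1/hsfb1 double knockout (dko), and D above -0.25 in the hsfa1 knockout. Differences between genotypes in the ABA set are therefore a description and were not tested. The 3 values of D share the Tak-1 libraries. All tests of genotype were made in a separate group of libraries, the heat set.

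Heat shock transcription factors are DNA-binding proteins that recognise heat shock elements in the DNA near genes of the stress response. Class A factors such as HSFA1 are known as activators of chaperone genes, and class B factors such as HSFB1 lack the activation domain of class A and are known in flowering plants mostly as repressors. ATAC-seq counts DNA fragments cut out by the Tn5 transposase, which reaches DNA that is not packed into nucleosomes, so a count measures how open a region is.

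The plants were gemmalings, young plants grown from asexual propagules of this liverwort, at day 7, and nuclei sorted from whole gemmalings were used. The genotypes were an hsfb1 knockout (line b1-70), the dko (line a1,b1-62), an hsfa1 knockout (line a1-8) and Tak-1 (line tak-1), so each mutant was represented by 1 line. In the heat set each genotype was sampled after 1 h at 37 °C and at 22 °C, with 2 libraries per group. In the ABA set each genotype had 2 libraries in a table column named ABA and 2 in a column named CK, for 2 h of 50 µM ABA or a mock with 20% ethanol. Column names and sample titles state opposite treatments there, so the columns are called only by their names. Whether replicates came from separate cultures is not stated, and p-values measure only the spread between these libraries.

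Depth, in 1e6 counts per library over the regions of a table, was 32.7 to 47.0 in the ABA set and 21.2 to 71.2 in the heat set. The Tak-1 pair at 22 °C was the least alike in the scaling of libraries, with TMM factors (the library scaling of edgeR) of 0.985 and 0.829 against 0.991 to 1.05 in the other 14 libraries of the heat set. In the heat set both dko libraries at 22 °C had more even than odd counts, the share of even counts being 0.536 and 0.564, while the remaining 14 had 0.497 to 0.508, and in the ABA set all 16 libraries had an even share of 0.531 to 0.634. No source used here gives the genome build and no annotation was used, so regions are named by chromosome, start and end, without a gene, exon, intron or UTR. The knocked-out loci were not checked for the same reason. A member was matched to a heat-set region that it overlapped by at least 50% of the shorter of both. This matched 391 members to 361 distinct heat-set regions, and 196 members had no match. Members were matched less often than regions in general, 66.6% of them beside 89.9% of all regions of the ABA set.

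Most members were moderately less open, and a few were nearly without counts. The median D over the members was -0.51 in hsfb1, -0.57 in dko and -0.09 in hsfa1. In 293 members both values lay between -0.4 and -0.6, close to the limit of the rule. D was at most -1 in hsfb1 for 36 members, in dko for 29, and in both for 18. The lowest D was -3.85 in hsfb1 and -3.15 in dko. D was lower in hsfb1 than in dko for 194 members and lower in dko for 393. In hsfa1, 134 members had D above 0 and 5 had D over 0.4, up to 2.01. In 290 members all 8 hsfb1 and dko libraries lay below all 8 hsfa1 and Tak-1 libraries, which held for 1.68% of all regions of the table, a count that the rule itself favours. The members just inside and the regions just outside each limit were alike: chr2:29003096-29003288 had D in hsfb1 of -0.4001 and was kept, and chr5:4301089-4301437 had -0.3999 and was not.

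The share of all counts within the members was 0.266% to 0.333% in the 4 hsfb1 libraries of the ABA set and 0.270% to 0.280% in the 4 dko libraries, against 0.408% to 0.439% in hsfa1 and 0.427% to 0.469% in Tak-1. The hsfb1 library highest in this share was replicate 1 of column CK, and without it the rule would keep 813 regions, 557 of them members. In the heat set, which the rule did not use, the 361 matched regions held 0.515% to 0.546% of counts in the 4 hsfb1 libraries and 0.494% to 0.546% in the 4 dko libraries, against 0.554% to 0.639% in hsfa1 and 0.604% to 0.683% in Tak-1. All 8 hsfb1 and dko libraries of the heat set thus lay below all 8 others. The hsfa1 libraries at 22 °C, at 0.554% and 0.578%, were the closest to them. The same order in the ABA set is favoured by the rule itself.

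The 6 members with the lowest mean of both D values show the range of patterns. The lowest was chr3:19136914-19137421, 507 bp wide. In the ABA set it held 1.41, 1.22, 2.66 and 1.03 CPM in hsfb1 and 1.27, 1.01, 1.16 and 1.41 CPM in dko, against 15.1, 16.8, 13.0 and 17.9 CPM in hsfa1 and 13.0, 17.7, 14.1 and 14.6 CPM in Tak-1 (column ABA replicates 1 and 2, then column CK). Both lines without HSFB1 were far below the other genotypes, with no overlap. Values of the heat set are TMM-scaled CPM and levels cannot be set against those of the ABA set, which was scaled apart. There, at 22 °C, it held 2.83 and 3.47 CPM in hsfb1 and 1.20 and 2.02 CPM in dko, against 16.1 and 18.2 CPM in hsfa1 and 1.68 and 1.43 CPM in Tak-1. Tak-1 was here as low as the lines without HSFB1, at 37 °C too, with 2.46 and 2.08 CPM, and only hsfa1 was high. The difference of dko minus hsfa1 was -3.44 (SE 0.22, adjusted p = 2.00e-12 by the quasi-likelihood test of edgeR, adjusted by Benjamini-Hochberg over all regions, as for every adjusted p below). That of hsfb1 minus Tak-1 was 1.01 (SE 0.24, adjusted p = 0.00388), opposite to its D, and it missed the threshold with loess offsets (0.63), without Tak-1 replicate 2 at 22 °C (0.90) and without hsfb1 replicate 2 at 22 °C (0.87). The Tak-1 libraries of both sets thus differed in whether this region was open.

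The second, chr1:30566709-30566971, kept its pattern in the heat set. Its 262 bp held 0.245, 0.174, 0.358 and 0.591 CPM in hsfb1 and 0.727, 0.618, 0.498 and 0.500 CPM in dko in the ABA set, against 7.31 to 10.4 CPM in hsfa1 and 6.26 to 7.68 CPM in Tak-1. At 22 °C in the heat set it held 0.944 and 1.12 CPM in hsfb1 and 0.724 and 0.593 CPM in dko, against 11.9 and 15.6 CPM in hsfa1 and 9.51 and 9.82 CPM in Tak-1. Every library without HSFB1 lay below every library with it, at 37 °C as well. The log2 difference at 22 °C was -3.24 for hsfb1 minus Tak-1 (SE 0.22, adjusted p = 6.45e-12) and -4.37 for dko minus hsfa1 (SE 0.23, adjusted p = 7.81e-15). At 37 °C both were again called, at -4.40 and -3.25. A region that started 1194 bp before it had 7.02 CPM in hsfb1 and 6.82 CPM in dko, against 7.04 CPM in Tak-1, so the next region on this side was as open in both lines as in Tak-1.

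On chromosome 5, chr5:18966980-18967155 held 0.291 to 0.997 CPM in hsfb1 and 0.682 to 1.49 CPM in dko in the ABA set, against 4.83 to 6.41 CPM in hsfa1 and 5.72 to 6.33 CPM in Tak-1. The heat-set libraries at 22 °C held 0.976 and 1.84 CPM in hsfb1 and 1.31 and 1.66 CPM in dko, against 9.93 and 8.01 CPM in hsfa1 and 7.09 and 5.30 CPM in Tak-1. Both differences were called, with -2.17 for hsfb1 minus Tak-1 (SE 0.27, adjusted p = 2.64e-06) and -2.60 for dko minus hsfa1 (SE 0.26, adjusted p = 1.47e-08). In dko the region rose with heat, by 1.75 (SE 0.26, adjusted p = 8.54e-06), to 5.06 and 4.87 CPM at 37 °C, and its change in hsfb1 was 0.41 (adjusted p = 0.415). The member chr7:7401046-7401197 had no match in the heat set. It held 0.0917 to 0.460 CPM in hsfb1 and 0.182 to 0.312 CPM in dko in the ABA set, against 4.39 to 5.48 CPM in hsfa1 and 3.65 to 4.71 CPM in Tak-1, while the regions on either side of it, which started 1026 bp before and 2777 bp after it, had 4.50 and 4.67 CPM in hsfb1 and 3.49 and 3.64 CPM in Tak-1.

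In the other 2 of these 6 the hsfb1 line lost nearly all counts and the dko only part. The 428 bp of chr3:7694051-7694479 held 0.841 ± 0.430 CPM in hsfb1 and 6.25 ± 0.617 CPM in dko in the ABA set, against 16.9 ± 0.842 CPM in hsfa1 and 18.8 ± 1.84 CPM in Tak-1 (SD, n = 4). At 22 °C in the heat set it held 0.814 and 1.12 CPM in hsfb1 and 6.99 and 5.22 CPM in dko, against 14.1 and 12.4 CPM in hsfa1 and 17.3 and 15.9 CPM in Tak-1. Its log2 difference was -4.13 for hsfb1 minus Tak-1 (SE 0.20, adjusted p = 1.30e-15) and -1.11 for dko minus hsfa1 (SE 0.16, adjusted p = 4.57e-06). At 37 °C the dko libraries reached 13.0 and 13.7 CPM, a heat response of 1.12 (SE 0.15, adjusted p = 2.52e-06), and dko minus hsfa1 was then -0.37 (adjusted p = 0.181). Likewise chr4:23927925-23928328 held 0.703, 0.871, 1.23 and 0.296 CPM in hsfb1 and 8.70, 8.37, 10.3 and 8.82 CPM in dko in the ABA set, against 15.8 to 17.7 CPM in hsfa1 and 15.7 to 16.7 CPM in Tak-1. Its differences in the heat set at 22 °C were -3.67 (SE 0.19, adjusted p = 3.02e-15) and -0.96 (SE 0.14, adjusted p = 1.14e-05) in the same order, and at 37 °C -4.24 and -0.74, all called. Loss of openness and a difference in the DNA sequence of a line cannot be told apart from counts.

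**Figure D1:**
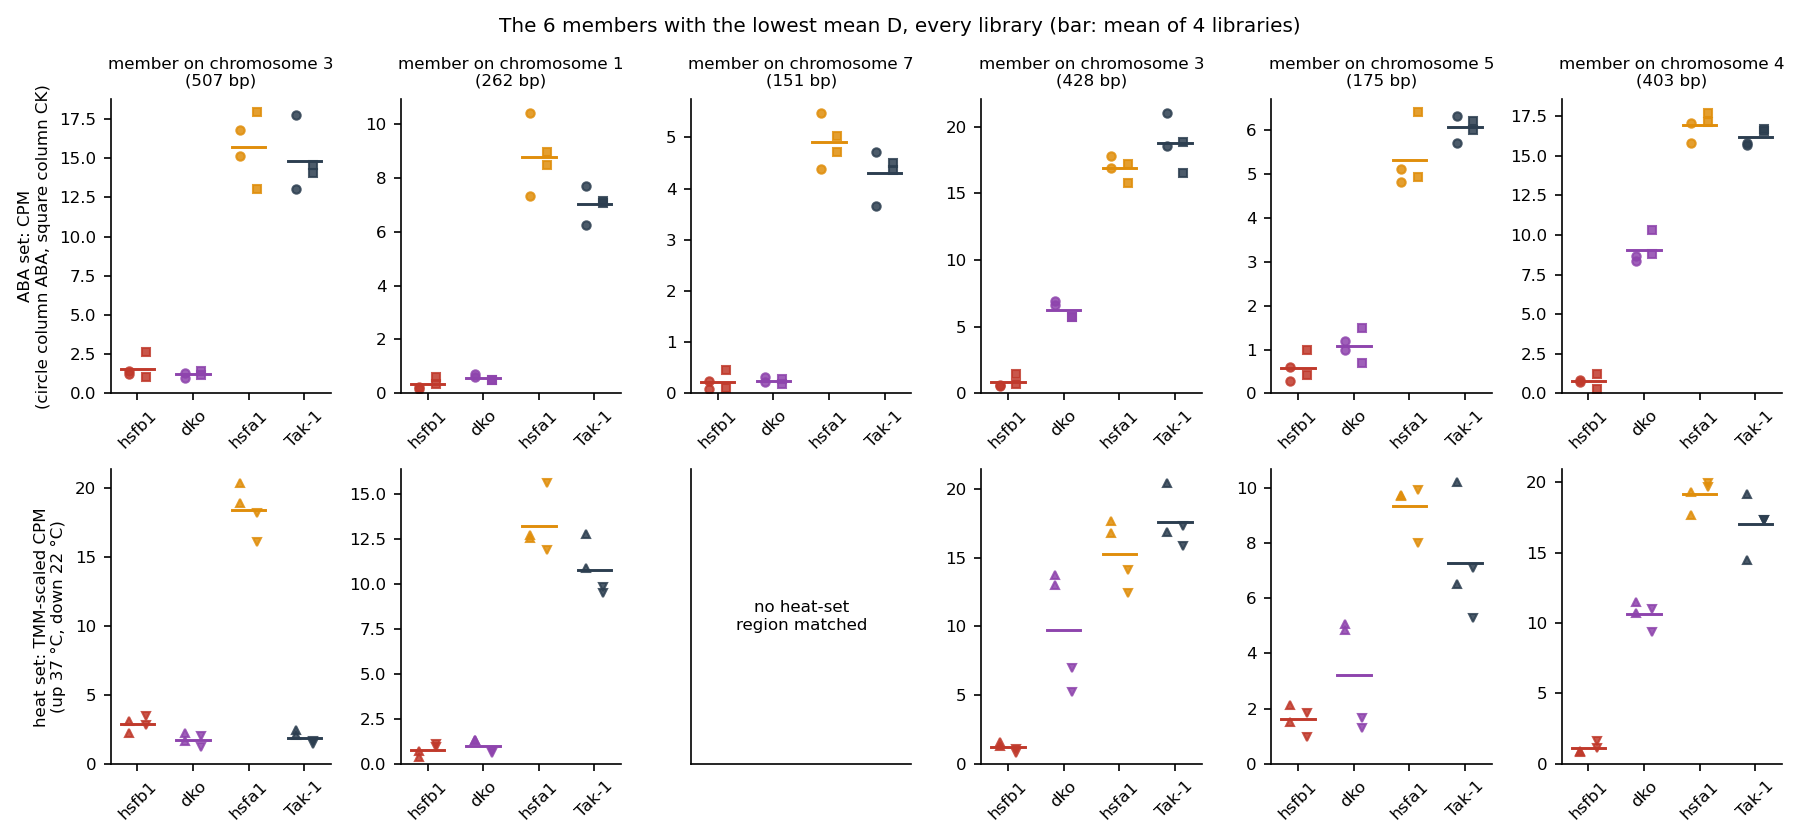
The 6 members with the lowest mean D, from left to right in that order, with every library as a point and the mean of 4 libraries as a bar. The upper row gives CPM in the ABA set and the lower row TMM-scaled CPM in the heat set, by genotype; in the first panel of the lower row Tak-1 is as low as hsfb1 and dko, and in the fourth and the sixth dko lies between hsfb1 and Tak-1.

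In the heat set at 22 °C, the members as a group were less open in the lines without HSFB1. Of the 361 matched regions, 147 (40.7%) were lower in hsfb1 than in Tak-1, where 18.4% of all 40873 heat-set regions were lower, and 3 were higher, beside 17.3% of all. Their median log2 difference was -0.33, against 0.06 over all regions. In dko against Tak-1, 163 (45.2%) were lower, beside 7.99% of all regions, and 1 was higher, beside 6.22%, with a median of -0.43 against -0.01. The comparison dko minus hsfa1 sets a line lacking HSFA1 and HSFB1 against a line lacking HSFA1 alone. There, 109 (30.2%) were lower, beside 11.1% of all, and 12 were higher, beside 9.6%, with a median of -0.21 against -0.01. Both lines with a wild type HSFB1 also differed: in hsfa1 against Tak-1, 86 (23.8%) were lower, beside 15.3% of all, and 14 were higher, beside 13.5%, with a median of -0.21 against 0.03. The matched regions were thus lower in hsfa1 too at 22 °C, although D in hsfa1 had been limited in the ABA set.

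These counts depended on single libraries. How many of all regions were called without a library is not given here. A general change in calls is therefore not separated from a change at the members. For hsfb1 minus Tak-1 the count of 147 was 36 without Tak-1 replicate 2 and 50 without hsfb1 replicate 2. For dko minus Tak-1 it was 106 without Tak-1 replicate 2 and 78 without dko replicate 2, and for dko minus hsfa1 it was 61 without dko replicate 2 and 68 without hsfa1 replicate 1. The 86 regions lower in hsfa1 came down to 1 without Tak-1 replicate 2 and to 3 without hsfa1 replicate 2. Total count scaling, which moved the median of all regions to 0.26, 0.15 and 0.16 for hsfb1, dko and hsfa1 minus Tak-1, gave 81, 103 and 42 lower regions. Such a scaling shifts all regions of a library alike. Loess offsets, which vary with the level of a region, can also move the median of the matched regions relative to that of all regions: it was -0.43, -0.50 and -0.32 with them, against -0.39, -0.42 and -0.24 with TMM scaling.

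At 37 °C fewer regions were called in all, and the members were again called lower more often than the rest. In hsfb1 against Tak-1, 94 (26.0%) were lower, beside 1.57% of all regions, and 0 were higher by edgeR, beside 3.47%, with a median of -0.33 against -0.00. In dko against Tak-1, 158 (43.8%) were lower, beside 8.19% of all, and 0 were higher, beside 3.45%, with a median of -0.42. For dko minus hsfa1, 69 (19.1%) were lower, beside 1.73% of all, and 0 were higher, beside 0.795%, with a median of -0.30. DESeq2 also called 0 higher in these 3 comparisons, and at an unadjusted p under 0.05 edgeR had 0, 3 and 2 higher regions in them. In hsfa1 against Tak-1, 18 (4.99%) were lower, beside 1.86% of all, and 4 were higher, beside 0.247%, with a median of -0.09. The log2 difference was below 0 in 339 of the 361 regions for hsfb1 minus Tak-1 and in 316 for dko minus hsfa1. Single libraries mattered here as well: the count for hsfb1 was 34 and 48 without hsfb1 replicates 1 and 2 and 40 without Tak-1 replicate 2, the count for dko minus Tak-1 was 72 and 88 without dko replicates 1 and 2, and the count for dko minus hsfa1 was 23 and 25 without dko replicates 1 and 2 and 19 and 26 without hsfa1 replicates 1 and 2. For hsfa1 minus Tak-1 it was 7 and 9 without hsfa1 replicates 1 and 2. The calls over all regions without a library are not given here either.

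**Figure D2:**
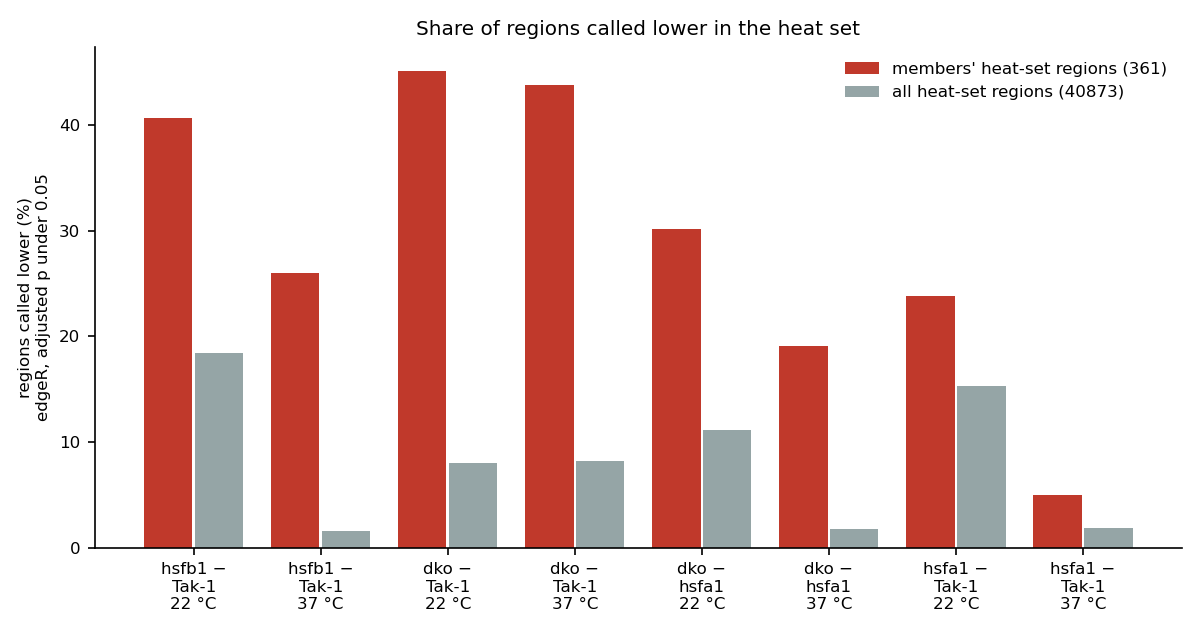
Percent of regions called lower (edgeR, adjusted p under 0.05) in each genotype comparison of the heat set, for the 361 regions matched to members and for all 40873 regions. The members' share is above that of all regions in each of the 8 comparisons, from 4.99% beside 1.86% in hsfa1 minus Tak-1 at 37 °C to 45.2% beside 7.99% in dko minus Tak-1 at 22 °C.

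The comparisons hsfb1 minus Tak-1 and dko minus hsfa1 share no library. Both set a line without HSFB1 against a line with it, once with HSFA1 present and once without it. Each mutant was 1 line, so the loss of HSFB1 and other differences between lines cannot be told apart. At 22 °C, 69 of the 361 regions (19.1%) were lower in both, beside 0.678% of all regions, and at 37 °C 31 (8.59%) were, beside 0.257%. Of these, 20 were lower in both at both temperatures, beside 0.071% of all. For hsfb1 minus Tak-1 alone, 65 regions (18.0%) were lower at both temperatures, beside 0.761% of all. At 22 °C the 69 came to 32 without Tak-1 replicate 2 (0.169% of all regions), 38 without hsfb1 replicate 2, 43 without hsfa1 replicate 1, 45 without dko replicate 2 and 43 with total count scaling. At 37 °C the 31 came to 10 and 15 without hsfa1 replicates 1 and 2, 12 and 14 without dko replicates 1 and 2, and 18 without either hsfb1 library. Under each of these settings the share of all regions lower in both fell as well, with total count scaling to 0.323% at 22 °C. In 29 regions (8.03%) all 8 hsfb1 and dko libraries of the heat set lay below all 8 hsfa1 and Tak-1 libraries. This held for 0.213% of all regions. In 0 did they lie above, beside 0.311%. At least 1 of the 4 differences was lower in 229 regions (63.4%), beside 30.5% of all, so 132 matched regions were lower in none of them.

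**Figure D3:**
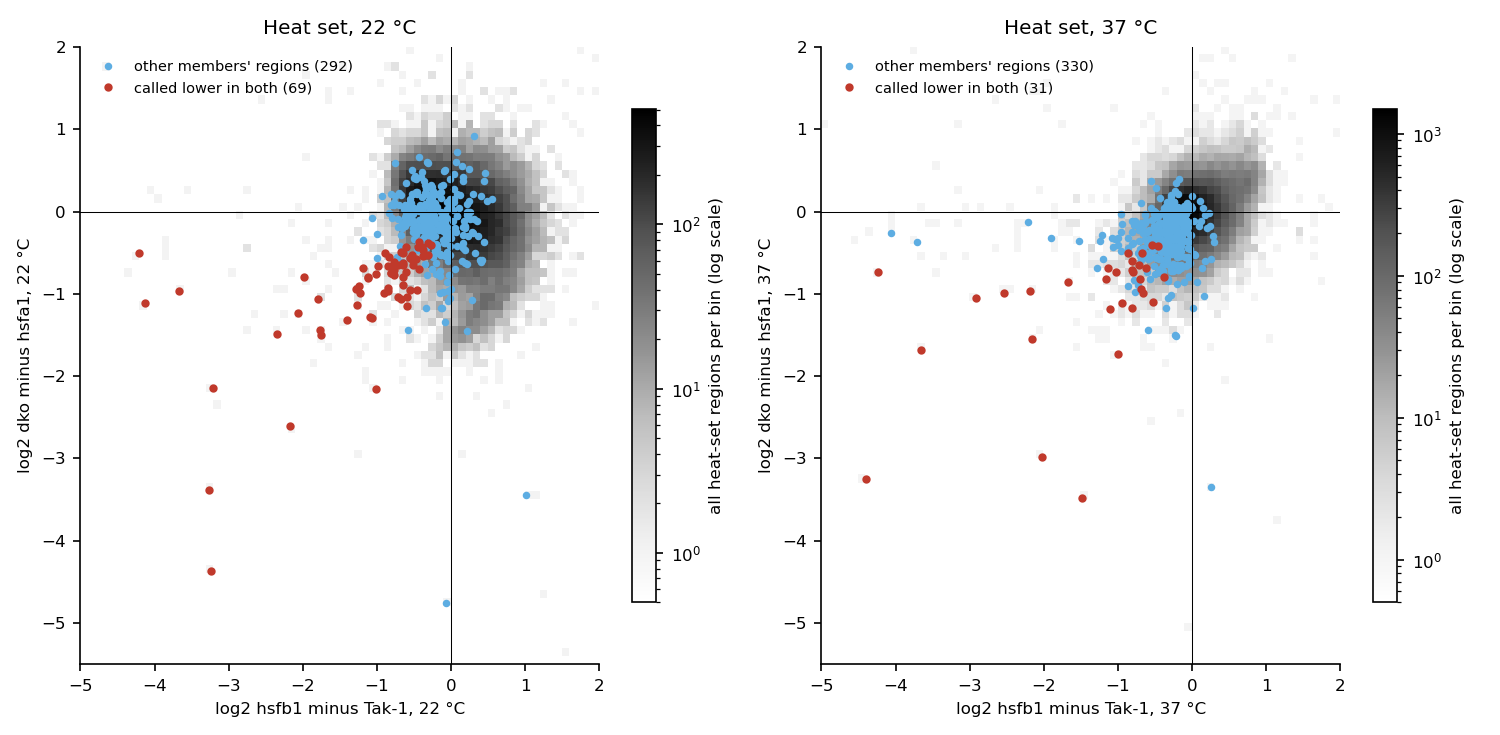
Log2 difference of dko minus hsfa1 against that of hsfb1 minus Tak-1 in the heat set, at 22 °C (left) and 37 °C (right). Grey bins count all heat-set regions on a log scale, 73 regions per panel lie outside the axes, and points are the 361 regions matched to members, red where called lower in both (69 at 22 °C, 31 at 37 °C). The red points extend to below -4 on the horizontal axis, and a blue point near 1 on that axis at 22 °C is the chromosome 3 region that is open in hsfa1 only.

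How often the loss was seen again in the heat set went with its size in the ABA set. A region matched to members of more than 1 class of D is counted in each. Of the 25 matched regions whose members had a mean D of at most -1, 21 were lower in hsfb1 than in Tak-1 at 22 °C, 23 in dko than in hsfa1 and 20 in both. Of the 91 regions with a mean D above -1 and at most -0.6, the counts were 47, 41 and 27. Of the 258 regions with a mean D above -0.6 they were 88, 52 and 28, with medians of -0.29 and -0.15. Over all heat-set regions the shares were 18.4%, 11.1% and 0.678%, as given above.

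Among the regions called lower in both comparisons at 22 °C, the 6 with the lowest hsfb1 minus Tak-1 difference include the chromosome 1 member and the chromosome 3 and 4 members with a partial loss in dko, given above. The lowest of all was the heat-set region chr5:15945676-15947059, 1383 bp wide and matched to the 73 bp member chr5:15945667-15945740 at its edge. It held 1.92 and 2.66 CPM in hsfb1 and 31.4 and 32.5 CPM in dko, against 45.1 and 45.7 CPM in hsfa1 and 40.7 and 42.6 CPM in Tak-1. Only hsfb1 was nearly closed, with -4.21 against Tak-1 (SE 0.16, adjusted p = 1.39e-18), while dko minus hsfa1 was -0.51 (SE 0.12, adjusted p = 0.00330). The ABA set splits this stretch: a region of 1325 bp that starts 135 bp after the member had 1.69 CPM in hsfb1 and 32.5 CPM in dko, against 43.9 CPM in hsfa1 and 38.3 CPM in Tak-1, and was no member because its D in dko was -0.22. The member itself had 0.135 CPM in hsfb1 and 0.364 CPM in dko, against 2.49 CPM in hsfa1 and 2.15 CPM in Tak-1 (means of 4 libraries). A region 2180 bp after the start of the member was more open in hsfb1, with 7.07 CPM against 3.35 CPM in Tak-1.

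In the remaining 2, dko lay between hsfb1 and Tak-1. The heat-set region of chr3:12043878-12044198 held 0.488 and 0.60 CPM in hsfb1 and 1.81 and 1.60 CPM in dko at 22 °C, against 18.0 and 18.0 CPM in hsfa1 and 5.29 and 5.10 CPM in Tak-1. The genotypes fell into separate levels with no overlap: the log2 difference was -3.26 for hsfb1 minus Tak-1 (SE 0.30, adjusted p = 4.61e-09), -3.39 for dko minus hsfa1 (SE 0.23, adjusted p = 5.74e-12) and 1.79 for hsfa1 minus Tak-1 (SE 0.20, adjusted p = 8.56e-07). At chr4:4213915-4214145 the libraries held 0.553 and 0.772 CPM in hsfb1 and 1.79 and 2.07 CPM in dko, against 9.45 and 7.56 CPM in hsfa1 and 6.44 and 5.72 CPM in Tak-1. Its differences were -3.22 for hsfb1 minus Tak-1 (SE 0.27, adjusted p = 3.96e-10) and -2.14 for dko minus hsfa1 (SE 0.22, adjusted p = 2.36e-08), and that of hsfa1 minus Tak-1 was 0.48 (adjusted p = 0.0620). Another member 2105 bp further on, chr4:4216020-4216254, had D of -2.12 in hsfb1 and -1.24 in dko, and its heat-set region was again lower in both comparisons at 22 °C, at -1.77 (SE 0.29, adjusted p = 0.000245) and -1.44 (SE 0.25, adjusted p = 8.82e-05).

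Some members went against their D in the heat set. Apart from the chromosome 3 region that was closed in Tak-1, the highest hsfb1 minus Tak-1 differences at 22 °C were small. The heat-set region of chr2:8305566-8305855 held 4.72 and 6.05 CPM in hsfb1, against 4.10 and 3.19 CPM in Tak-1. The difference was 0.56 (SE 0.20, adjusted p = 0.0316). The other mutants were also higher than Tak-1, dko by 0.68 (adjusted p = 0.0189) and hsfa1 by 0.53 (adjusted p = 0.0495). Between these, dko minus hsfa1 was 0.15 (adjusted p = 0.634). At 37 °C the region held 5.26 and 6.13 CPM in hsfb1, against 5.77 and 7.14 CPM in Tak-1. The groups overlapped there, with hsfb1 minus Tak-1 at -0.18 (adjusted p = 0.629). For chr4:14913971-14914135 the difference at 22 °C was 0.48 (SE 0.18, adjusted p = 0.0409), and for chr8:2767705-2767890 it was 0.46 (adjusted p = 0.115). Both called differences of hsfb1 minus Tak-1 missed the threshold with loess offsets, without Tak-1 replicate 2 at 22 °C and without hsfb1 replicate 2 at 22 °C. A further pattern was chosen after its values were seen, and its share over all regions was not counted. In 3 members the hsfa1 line was called over 2-fold more open than Tak-1 at both temperatures. Besides those on chromosome 3, this was chr2:27342679-27342869, which had the highest D in hsfa1, 2.01. At 22 °C it held 8.15 CPM in hsfa1, 0.853 CPM in hsfb1 and 0.903 CPM in Tak-1 (means of 2 libraries). Its hsfb1 minus Tak-1 difference there was -0.06, so the lower level in hsfb1 was not seen again. Its Tak-1 level in the ABA set, 0.684 CPM, was the lowest of all members.

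Whether the members answered heat was read as 37 °C minus 22 °C within each genotype. They did not move one way: 56 regions were higher and 56 lower in Tak-1, beside 12% and 13.1% of all regions, with a median of 0.01. In hsfb1, 32 were higher and 47 lower, beside 6.19% and 8.79% of all. In dko it was 72 and 72, beside 13.3% and 16%, and in hsfa1 97 and 49, beside 17.2% and 20.5%, with a median of 0.09. With total count scaling, which moved the median of all regions in Tak-1 to 0.14, the split in Tak-1 was 85 higher and 27 lower. With loess offsets it was 37 higher and 38 lower in hsfb1, 83 and 61 in dko, 115 and 50 in hsfa1, and 52 and 65 in Tak-1, so the balance of directions depends on the scaling. In all 4 genotypes 9 regions were higher, beside 1.71% of all, and 13 lower, beside 2.25%. The total in Tak-1 was 71 without its replicate 2 at 22 °C and 63 without its replicate 2 at 37 °C. In hsfb1 it was 51 and 38 without replicates 1 and 2 at 37 °C, in hsfa1 88 without replicate 2 at 22 °C, and in dko 89 without replicate 2 at 22 °C and 76 and 95 without replicates 1 and 2 at 37 °C.

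The highest response in Tak-1 belonged to the 762 bp heat-set region chr3:4088942-4089704, matched to the 226 bp member chr3:4088946-4089172. That member had D of -2.15 in hsfb1 and -0.405 in dko. At 22 °C the heat-set region was not called lower in hsfb1 than in Tak-1, at -0.01 (adjusted p = 0.961). The heat-set region reads the member together with neighbouring DNA, so its response cannot be placed within the member. It held 4.25 and 4.51 CPM in hsfb1, 5.00 and 4.03 CPM in dko and 5.53 and 4.32 CPM in hsfa1 at 37 °C, against 19.9 and 20.9 CPM in Tak-1. At 22 °C the values were 5.14 and 5.83 CPM in hsfb1, 4.07 and 4.03 CPM in dko and 8.08 and 8.69 CPM in hsfa1, against 6.47 and 4.59 CPM in Tak-1. Heated Tak-1 was far above every other group. At 22 °C hsfa1 was also higher than Tak-1, by 0.60 (SE 0.18, adjusted p = 0.0151), and dko minus hsfa1 was -1.05 (SE 0.18, adjusted p = 0.000131). With heat the counts rose in Tak-1 by 1.89 on the log2 scale (SE 0.17, adjusted p = 1.70e-09) and fell by 0.77 in hsfa1 (SE 0.18, adjusted p = 0.00153), and the changes in hsfb1 and dko were -0.32 (adjusted p = 0.282) and 0.15 (adjusted p = 0.576). The response in hsfb1 minus that in Tak-1 was -2.20 (SE 0.25, adjusted p = 4.53e-05), the 1 such difference called among the 361 regions, beside 0.00979% of all regions. That count was 59 without Tak-1 replicate 1 at 22 °C and 8 without Tak-1 replicate 1 at 37 °C. DESeq2 gave this region no adjusted p.

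Among the other members with the highest responses in Tak-1, 2 rose in hsfb1 as well and missed the threshold in dko and hsfa1. The heat-set region of chr2:25974767-25975042 held 14.3 and 14.9 CPM in hsfb1 and 16.5 and 16.7 CPM in Tak-1 at 37 °C, against 5.70 and 6.26 CPM in hsfb1 and 7.09 and 6.64 CPM in Tak-1 at 22 °C. It rose by 1.29 in hsfb1 (SE 0.16, adjusted p = 1.08e-06) and by 1.27 in Tak-1 (SE 0.15, adjusted p = 1.86e-07), and its changes in dko and hsfa1 were 0.12 (adjusted p = 0.633) and 0.20 (adjusted p = 0.339). For chr3:8868413-8868479, a 66 bp member inside a 669 bp heat-set region, the rise was 0.95 in hsfb1 and 1.22 in Tak-1, and the changes in dko and hsfa1 were 0.11 (adjusted p = 0.668) and 0.37 (adjusted p = 0.0954). The 272 bp heat-set region of the 78 bp member chr6:4055561-4055639 rose by 1.53 in Tak-1. Its changes were 0.60 in hsfb1 (adjusted p = 0.133), -0.51 in dko and 0.01 in hsfa1, none of these past the threshold. The difference between the responses of Tak-1 and those of dko and hsfa1 was not tested here.

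Of the 4 members that fell most with heat in Tak-1, 2 fell in all 4 genotypes. The region of chr7:19912095-19912514 held 5.01 and 4.48 CPM in hsfb1, 3.82 and 3.97 CPM in dko, 4.70 and 5.27 CPM in hsfa1 and 7.24 and 8.28 CPM in Tak-1 at 37 °C. At 22 °C it held 10.6 and 8.96 CPM in hsfb1, 6.47 and 6.10 CPM in dko, 16.5 and 14.3 CPM in hsfa1 and 17.3 and 24.6 CPM in Tak-1. Its heat response was -1.05 in hsfb1, -0.69 in dko, -1.62 in hsfa1 and -1.43 in Tak-1, all called. The difference of hsfb1 minus Tak-1 was -0.71 (adjusted p = 0.0109) at 37 °C and -1.09 at 22 °C, and that of dko minus hsfa1 was -0.36 (adjusted p = 0.332) at 37 °C and -1.29 at 22 °C. The other that fell in all 4 was the 1248 bp heat-set region matched to the 184 bp member chr8:11798089-11798273. Its change was -0.60 in hsfb1 and -1.02 in Tak-1, read over a far wider stretch than the member. At chr2:2361587-2361997 the response was -1.38 in Tak-1, -0.96 in hsfa1 (adjusted p = 0.000471) and -0.74 in hsfb1 (adjusted p = 0.0147). In dko it was -0.23 (adjusted p = 0.415). At chr6:17333026-17333222 the response was -1.20 in Tak-1, which missed the threshold without Tak-1 replicate 2 at 22 °C (-0.54). It was -1.56 in hsfa1 (adjusted p = 0.000471), -1.54 in dko (adjusted p = 0.000583) and -0.65 in hsfb1 (adjusted p = 0.154).

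**Figure D4:**
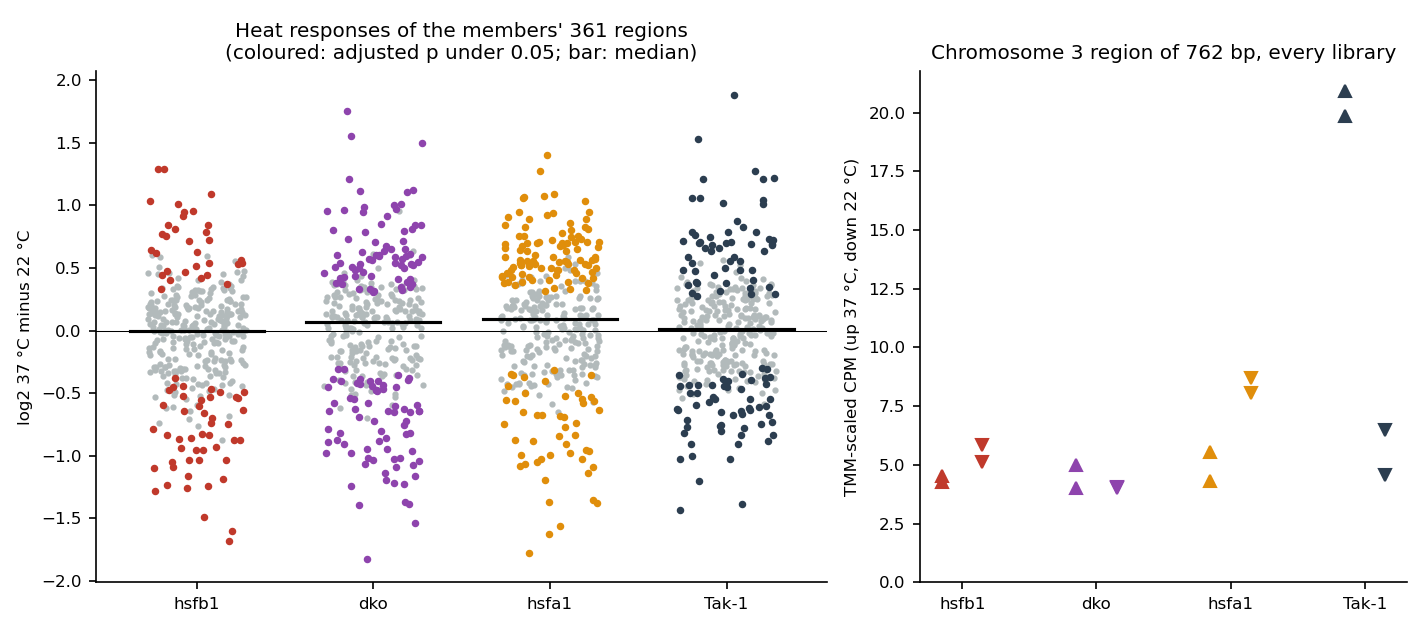
Left, log2 heat response (37 °C minus 22 °C) of the 361 regions matched to members in each genotype, coloured where called and with the median as a bar; medians run from -0.00 in hsfb1 to 0.09 in hsfa1. Right, TMM-scaled CPM of the 762 bp chromosome 3 region in every heat-set library, where the Tak-1 libraries at 37 °C, at 19.9 and 20.9, are the highest and the hsfa1 libraries at 22 °C, at 8.08 and 8.69, come next.

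The columns named ABA and CK hardly differed over all regions, and the members were no exception. By edgeR 0 of the 587 members were called in any genotype, beside 0%, 0%, 0.00187% and 0% of all regions in hsfb1, dko, hsfa1 and Tak-1. DESeq2 called 0 as well. The median of column ABA minus column CK was -0.12 in hsfb1, -0.02 in dko, -0.02 in hsfa1 and 0.04 in Tak-1. At an unadjusted p under 0.05 there were 59 members in hsfb1 (10.1%, beside 8.03% of all regions), 32 in dko (5.45%, beside 3.65%), 15 in hsfa1 (2.56%, beside 2.70%) and 12 in Tak-1 (2.04%, beside 1.78%). In hsfb1, 52 of those 59 were lower in column ABA, and replicate 1 of column CK was the hsfb1 library with the highest share of counts in the members. The direction of such differences over all regions is not given here.

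The members were narrower and weaker than most regions. The Tak-1 level enters D, and how far the rule itself selects narrow or weak regions was not tested. Their median width was 187 bp and their median level in Tak-1 was 5.07 CPM, against 286 bp and 8.62 CPM over all regions of the ABA set. Per length the gap was smaller, with 27.4 CPM per kb in the members and 31.1 CPM per kb over all regions. Of the regions under 150 bp 1.59% were members, and of those of 600 bp or more 0.314%. The 196 members without a match in the heat set were narrower still, with a median of 112 bp and 3.20 CPM in Tak-1. Matched heat-set regions were wider than their members, by a median factor of 1.32, and 149 matched members lay in a heat-set region over 2 times as wide, so the heat set reads them together with neighbouring DNA. A few members were large: chr6:12288636-12290291, the widest at 1655 bp and the highest at 43.8 CPM in Tak-1, held 28.0, 33.7, 37.6 and 30.6 CPM in hsfb1 and 29.5 to 32.2 CPM in dko in the ABA set, against 38.8 to 42.8 CPM in hsfa1 and 41.6 to 47.2 CPM in Tak-1. In the heat set its hsfb1 minus Tak-1 difference at 22 °C was -0.26 (adjusted p = 0.0539). At chr1:24491792-24492949 it was -0.64 (SE 0.11, adjusted p = 0.000589) and at chr7:15073562-15074433 -0.31 (adjusted p = 0.0443), and dko minus hsfa1 was called at both, at -0.51 and -0.52. At chr5:16340611-16341700 dko minus hsfa1 was -0.18 (adjusted p = 0.284) at 22 °C and -0.80 (adjusted p = 3.04e-05) at 37 °C, where the region held 16.4 and 16.1 CPM in dko, against 29.1 and 27.4 CPM in hsfa1.

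Members lay on every autosome. Their share of the regions of a chromosome ran from 0.844% on chromosome 5 to 1.38% on chromosome 7, with 1 member on chromosome V and 1 on an unplaced scaffold. With gaps of up to 10 kb they formed 474 runs. In 396 of these a member stood alone, and 73 members lay in the 19 runs of 3 or more. The longest run held 8 members, all 8 regions of the table between 26488813 and 26494404 on chromosome 2. Their D was -0.87 to -0.42 in hsfb1 and -1.17 to -0.53 in dko, with a median of -0.11 in hsfa1. They matched 4 heat-set regions, of which 2 were lower in hsfb1 than in Tak-1 at 22 °C and 3 at 37 °C. Over all regions these shares were 18.4% and 1.57%, and over all matched regions 40.7% and 26.0%. The region chr2:26494054-26494408 was lower in both comparisons at both temperatures, with -0.79 (adjusted p = 0.00364) and -0.70 (adjusted p = 0.00787) at 22 °C and -0.80 (adjusted p = 0.00763) and -0.71 (adjusted p = 0.0384) at 37 °C for hsfb1 minus Tak-1 and dko minus hsfa1 in turn.

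Next came 7 of the 9 regions between 9777289 and 9787330 on chromosome 1. Within it, the heat-set region chr1:9779619-9780651, which covers 2 members, had a log2 difference of -1.06 at 22 °C and -0.86 at 37 °C for hsfb1 minus Tak-1, and of -1.29 at 22 °C and -0.51 at 37 °C for dko minus hsfa1, all 4 called. On chromosome 7 one run held 5 of the 7 regions between 19906297 and 19912514, with the region described above that fell with heat, and another 5 of the 9 between 14863413 and 14871600. In the second of these, chr7:14864942-14865747 was lower in both comparisons at both temperatures, at -0.85 and -0.93 at 22 °C and -0.62 and -0.69 at 37 °C. A run on chromosome 6 held 4 of the 5 regions between 15177123 and 15180172. Its 3 matched heat-set regions were lower in hsfb1 than in Tak-1 at 22 °C, and 1 of them in dko than in hsfa1. Over all regions these shares were 18.4% and 11.1%, and over all matched regions 40.7% and 30.2%. Neighbouring members can be pieces of the same open stretch, so members of a run are not independent.

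**Figure D5:**
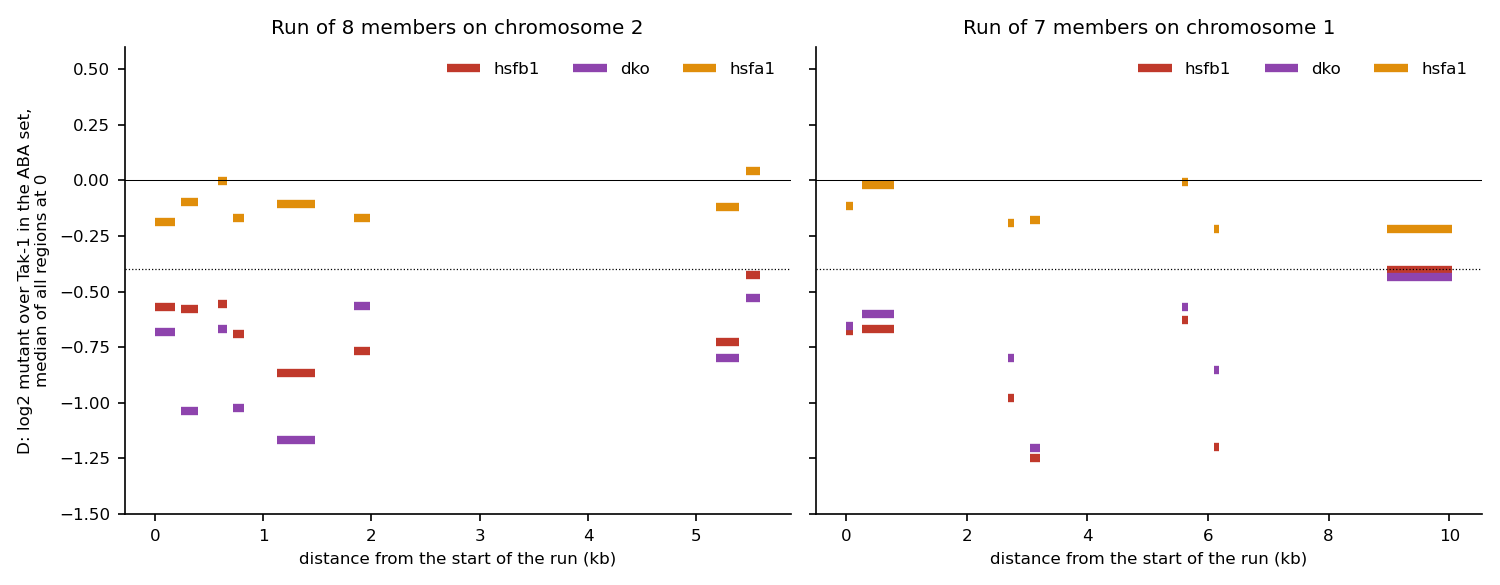
D, the log2 ratio of a mutant to Tak-1 in the ABA set, of the members in the runs on chromosome 2 (8 members) and chromosome 1 (7 members) against the distance from the start of the run in kb; each bar spans the width of a member and the dotted line is the limit of -0.4. The hsfa1 bars lie above -0.25 and the hsfb1 and dko bars below -0.4, as the rule requires, and D of neighbours varies between -0.40 and -1.25.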

How the data were processed

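ATAC-seq was made from sorted, DAPI-stained nuclei, per the labels. The authors deposited whole-number read counts per region in a table for each set, with regions shared by all libraries of a table and no pooling of replicates stated. Per the submitters' processing notes the tools included fastp 0.24.0, Bowtie2 2.4.4, MACS2 2.2.7.1 and featureCounts; their settings and the genome build are not given in the sources used here. Whether starts count from 0 or 1 is not stated.

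From the deposited counts, CPM was computed over the column total, and TMM-scaled CPM for the heat set. All regions of a table were fitted in edgeR 4.0.16 (limma 3.58.1, R 4.3.3) with 1 mean per group and TMM scaling; filterByExpr removed 0 regions. Quasi-likelihood tests were adjusted by Benjamini-Hochberg over all regions of the table, and a call is an adjusted p under 0.05. The SE is the absolute log2 value over the square root of F. DESeq2 1.42.0, total count scaling, loess offsets, no filter, a replicate block, other rules and overlaps, and leaving out each library were alternatives. The fit was tested on simulated data. The members and lists were chosen with earlier results of these data known. Named were, with a mean of at least 50 counts, the 6 members with the lowest mean D, the 6 lowest in hsfb1 minus Tak-1 among those lower in both comparisons at 22 °C, the 4 highest in hsfb1 minus Tak-1 at 22 °C, the 4 highest and the 4 lowest called heat responses in Tak-1, the 3 widest and the 3 with the highest Tak-1 CPM, members and regions next to the limits, and the 5 runs with most members; neighbours and single heat-set regions of the runs were chosen after their values were seen. Same-numbered replicates correlated over 0.1 in 6 of 28 pairs of groups in the heat set and 15 of 28 in the ABA set, and the numbers were not taken as pairing. Counts limit precision for members, whose median mean count was 160.9, against 344.3 over all regions of the ABA set.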

Additional observations from a re-analysis of the deposited data

Results flagged for a closer look

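The heat response of the region chr3:4088942-4089704 differed between genotypes by an interaction test: the response in hsfb1 minus that in Tak-1 was -2.20 on the log2 scale (SE 0.25, adjusted p = 4.53e-05 by edgeR's quasi-likelihood test). Both Tak-1 libraries at 37 °C lay above both at 22 °C. Both hsfb1 libraries at 37 °C lay below both at 22 °C, a change of -0.32 (adjusted p = 0.282). The region is 762 bp wide and its member 226 bp, so the response cannot be placed within the member. DESeq2 gave no adjusted p for this region.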

How the results depend on the processing

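Named regions were checked under the alternatives only for hsfb1 minus Tak-1 and dko minus hsfa1 at 22 °C and the heat response in Tak-1. None of the called differences checked changed direction, but medians near 0 did. With loess offsets the median heat response of the matched regions was 0.03 in hsfb1 and -0.00 in Tak-1, against -0.00 and 0.01 with TMM scaling. Counts are of matched regions called lower, or called either way for heat responses and the interaction. Total count scaling gave 81 for hsfb1, 103 for dko and 42 for hsfa1 minus Tak-1 at 22 °C, and 43 regions lower in both comparisons at 22 °C. The stricter rule, D at most -0.6, keeps 110 members in 69 heat-set regions; by construction its counts were smaller. At 22 °C they were 46 for hsfb1, 44 for dko and 16 for hsfa1 minus Tak-1, 39 for dko minus hsfa1 and 34 for both comparisons. At 37 °C they were 44, 43, 6, 22 and 19 in that order, the heat responses were 12 in hsfb1, 27 in dko, 23 in hsfa1 and 20 in Tak-1, and the interaction was 0. Of those 69 regions, 49.3% were lower in both comparisons at 22 °C and 27.5% at 37 °C. The shares were 19.1% and 8.59% of the 361 regions, and 0.678% and 0.257% of all regions. A reciprocal overlap of 50%, added after seeing the data, leaves 221 regions. It gave 80, 99 and 39 for hsfb1, dko and hsfa1 minus Tak-1 at 22 °C, 61 for hsfb1 and 5 for hsfa1 minus Tak-1 at 37 °C, heat responses of 45 in hsfb1, 87 in dko, 88 in hsfa1 and 66 in Tak-1, and an interaction count of 0. Of the 221 regions, 24.0% were lower in both comparisons at 22 °C and 12.2% at 37 °C. The interaction count was also 0 with DESeq2, which gave the region concerned, chr3:4088942-4089704, no adjusted p. It was 0 as well without members whose hsfb1 level in the ABA set was far below that of Tak-1. That was the other alternative added after seeing the data. This alternative, the stricter rule and the reciprocal overlap each leave out the region concerned, so their counts of 0 do not test its call. The rule would choose 64 regions with a pseudocount of 5 CPM (55 of them members), 134 with D in hsfa1 above 0 (all members), 927 with column ABA alone (418 members) and 486 with column CK alone (326 members).

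Leaving out each library in turn gave, at 22 °C, 36 to 162 for hsfb1, 78 to 192 for dko and 1 to 118 for hsfa1 minus Tak-1, 61 to 94 for dko minus hsfa1 and 32 to 70 for both comparisons. At 37 °C it gave 34 to 111, 72 to 126, 7 to 16, 19 to 26 and 10 to 35 in that order. Heat responses were 38 to 66 in hsfb1, 76 to 98 in dko, 88 to 115 in hsfa1 and 63 to 130 in Tak-1, and the interaction 1 to 59. Column ABA minus column CK was 0 to 1 in hsfb1 and 0 to 0 in the other genotypes, and the rule chose 505 to 813 regions. A group left with 1 library is assumed to vary like the others. A change in how many of all regions are called is not separated here from a change at the members. With a replicate block the counts at 22 °C were 147 for hsfb1 and 163 for dko minus Tak-1 and 108 for dko minus hsfa1, with 68 lower in both comparisons, and no count moved by over 1.5 times. The causes of these changes were not tested, apart from the smaller sets of regions. Among the named regions, in the comparisons checked, 232 values kept their call, 10 missed the threshold and 1 passed it.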
